A study of Mus musculus with 3 samples.

Results

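The genes of sterol and fatty acid synthesis were followed through a DRUG-seq2 screen of wild-type mouse embryonic fibroblasts. The 30 genes were taken by symbol from a count table of 20471 genes: 18 enzymes of the sterol branch, 8 enzymes of the fatty acid branch, and 4 genes that regulate or carry sterols and were counted apart. DRUG-seq2 lyses cells in the wells of a plate, tags the RNA of each well with a barcode during reverse transcription, and sequences the pooled wells. Apart from 2 wells named as holding no cells, the wells held these fibroblasts, taken from embryos and with no genetic change in the labels. The 218 compound wells tested were grown for 4 days in CFAE+8 medium, each with 1 compound from a purchased library. Of 211 compounds tested, 87 were on plate 1, 84 on plate 2 and 40 on plate 3, nearly all in a single well. Compounds were counted by name within each plate, and other names of the same compound were not merged. RG_14620 on plate 1 and RG14620 on plate 2 thus count as 2, also in their target class. Salt and solvate names in parentheses are left out of compound names here, except where 2 forms of a compound had a well each, which were tested together as 1 compound. The labels name no vehicle well and no compound dose, so each compound was compared with the other screening wells of its own plate. Plate 3 also held wells without compound in 8 named groups: MEF (4 wells), basal (3), bCFAE (3), bC8FAE (5), bC6FAE[2] (3), bC6FAE[10] (4), bCLFAE (4) and bCSFAE (4). These groups are called media here for short. MEF is also the name of the cells, and the labels give no separate medium or time in culture for the MEF wells. The letters of the group names are not spelled out, and nothing says that wells of 1 medium were separate cultures, so p-values measure the spread between wells only. The bC8FAE wells were taken as the screening medium without compound from their name, and they are counted among the 223 screening wells, so the reference of plate 3 mixes 41 compound wells with these 5 wells without compound.

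Cells build cholesterol from acetyl-CoA through mevalonate, farnesyl diphosphate, squalene and lanosterol, and build long-chain fatty acids from the same acetyl-CoA through malonyl-CoA and palmitate. Most genes of both branches are textbook targets of the SREBP transcription factors, encoded by Srebf1 and Srebf2. When sterols are plentiful, the Insig proteins hold the SREBP precursors in the endoplasmic reticulum. When sterols are scarce, the precursors are cleaved and their active part enters the nucleus. In fibroblasts, which can take up lipids from serum, both branches are known to answer to the lipids of the medium.

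Counts per 1000000 counts of the well (CPM) give the level of a gene, and levels of different genes were not compared, since the counts are not corrected for length. Totals ranged from 119156 to 725438 counts in the media wells and from 45388 to 1204995 in the compound wells tested. The 30 genes summed to 992.9 to 4561 CPM in 223 screening wells, with a median of 2632, so a typical gene rests on few counts per well. All 11 fibroblast markers examined were present, and their summed level was 6459 to 8327 CPM in MEF wells and 5272 to 7050 in bC8FAE wells. These are bulk wells, in which fewer cells of a type and less RNA per cell cannot be told apart. The wells MEF 3 (138590 counts) and bC8FAE 4 (119156 counts) had low totals. No label says whether a count is a read or a molecule.

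The promoters of these genes are where SREBP and its partner NF-Y are known to bind. A RefSeq table (GRCm38.p6) of windows from 250 bases before to 50 bases after each gene's start held 23 of the 30 genes. It was searched on both strands for TCACNCCAC (a sterol regulatory element core), CCAAT (the NF-Y box), GGGCGG (a GC box) and CACGTG (an E-box). CCAAT was found in 13 of 15 sterol promoters, 2 of 5 fatty acid promoters and 3 of 3 of the regulators, against 37.4% of all 32851 promoters in the table. GGGCGG was found in 14 of 15, 2 of 5 and 2 of 3, against 35.7% of all promoters. CACGTG was in 2 of 15, 0 of 5 and 1 of 3, against 7.15%, and TCACNCCAC in 1 of 15, 0 of 5 and 0 of 3, against 1.24%. The 1 promoter with the sterol element was that of Hmgcs1, the cytosolic synthase that makes HMG-CoA. A match is a description of the letters and no evidence of binding. The 250 bases before the start are printed 5′ to 3′ on the gene's strand for 4 genes: Hmgcs1 for its sterol element, Mvd as a sterol gene that was low in many wells, Fasn as a fatty acid gene with its own pattern, and Insig1 as a regulator. Capitals mark the motifs or their reverse complements. The only overlapping matches in these 4 windows are a forward and a reverse CCAAT in the Fasn run CCAATTGG. The windows are chr13:119690101-119690350, plus strand, for Hmgcs1, chr8:122443423-122443672, minus strand, for Mvd, chr11:120824548-120824797, minus strand, for Fasn, and chr5:28071162-28071411, plus strand, for Insig1.
Hmgcs1: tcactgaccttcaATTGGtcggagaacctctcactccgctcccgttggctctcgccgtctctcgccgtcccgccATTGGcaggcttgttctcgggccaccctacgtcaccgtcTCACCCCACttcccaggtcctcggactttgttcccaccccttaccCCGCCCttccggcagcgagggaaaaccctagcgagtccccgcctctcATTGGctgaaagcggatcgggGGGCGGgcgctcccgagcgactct
Mvd: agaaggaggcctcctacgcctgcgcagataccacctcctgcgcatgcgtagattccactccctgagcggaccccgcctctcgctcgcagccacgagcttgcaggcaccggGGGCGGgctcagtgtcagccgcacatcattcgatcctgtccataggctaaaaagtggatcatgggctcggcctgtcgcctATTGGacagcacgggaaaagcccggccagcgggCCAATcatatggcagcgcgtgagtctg
Fasn: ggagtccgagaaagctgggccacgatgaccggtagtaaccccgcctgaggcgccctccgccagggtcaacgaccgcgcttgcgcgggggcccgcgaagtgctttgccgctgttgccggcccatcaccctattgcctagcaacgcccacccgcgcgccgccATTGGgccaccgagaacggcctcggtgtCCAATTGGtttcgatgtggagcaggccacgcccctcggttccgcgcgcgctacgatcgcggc
Insig1: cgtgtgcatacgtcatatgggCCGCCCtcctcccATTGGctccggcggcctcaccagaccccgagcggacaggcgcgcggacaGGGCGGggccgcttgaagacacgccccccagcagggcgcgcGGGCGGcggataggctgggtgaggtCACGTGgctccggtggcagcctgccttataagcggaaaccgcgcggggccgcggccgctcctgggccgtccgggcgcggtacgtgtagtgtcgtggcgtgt

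The first question was how the levels of the 2 branches differed between the media. In the screening medium without compound (bC8FAE) the sterol branch was low against MEF wells. Of 17 sterol genes that passed the filter on low counts, 13 fell, 0 rose and 4 were not called, with a median log2 difference of -1.25 against 0.00 over all 6973 genes tested. A gene is called at a Benjamini-Hochberg adjusted p under 0.05 in edgeR's quasi-likelihood test, and 17.3% of all genes were called lower in this comparison. The fatty acid branch had calls in both directions: of 7 genes tested, Fasn rose, Elovl6, Scd1 and Acly fell, and 3 were not called. Of all genes, 14.8% were called higher, so 1 higher call of 7 is near that share. The Fasn call was also lost without some single wells, as given below. The dot plot of counts by medium shows the wells behind these calls.

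**Figure D1:**
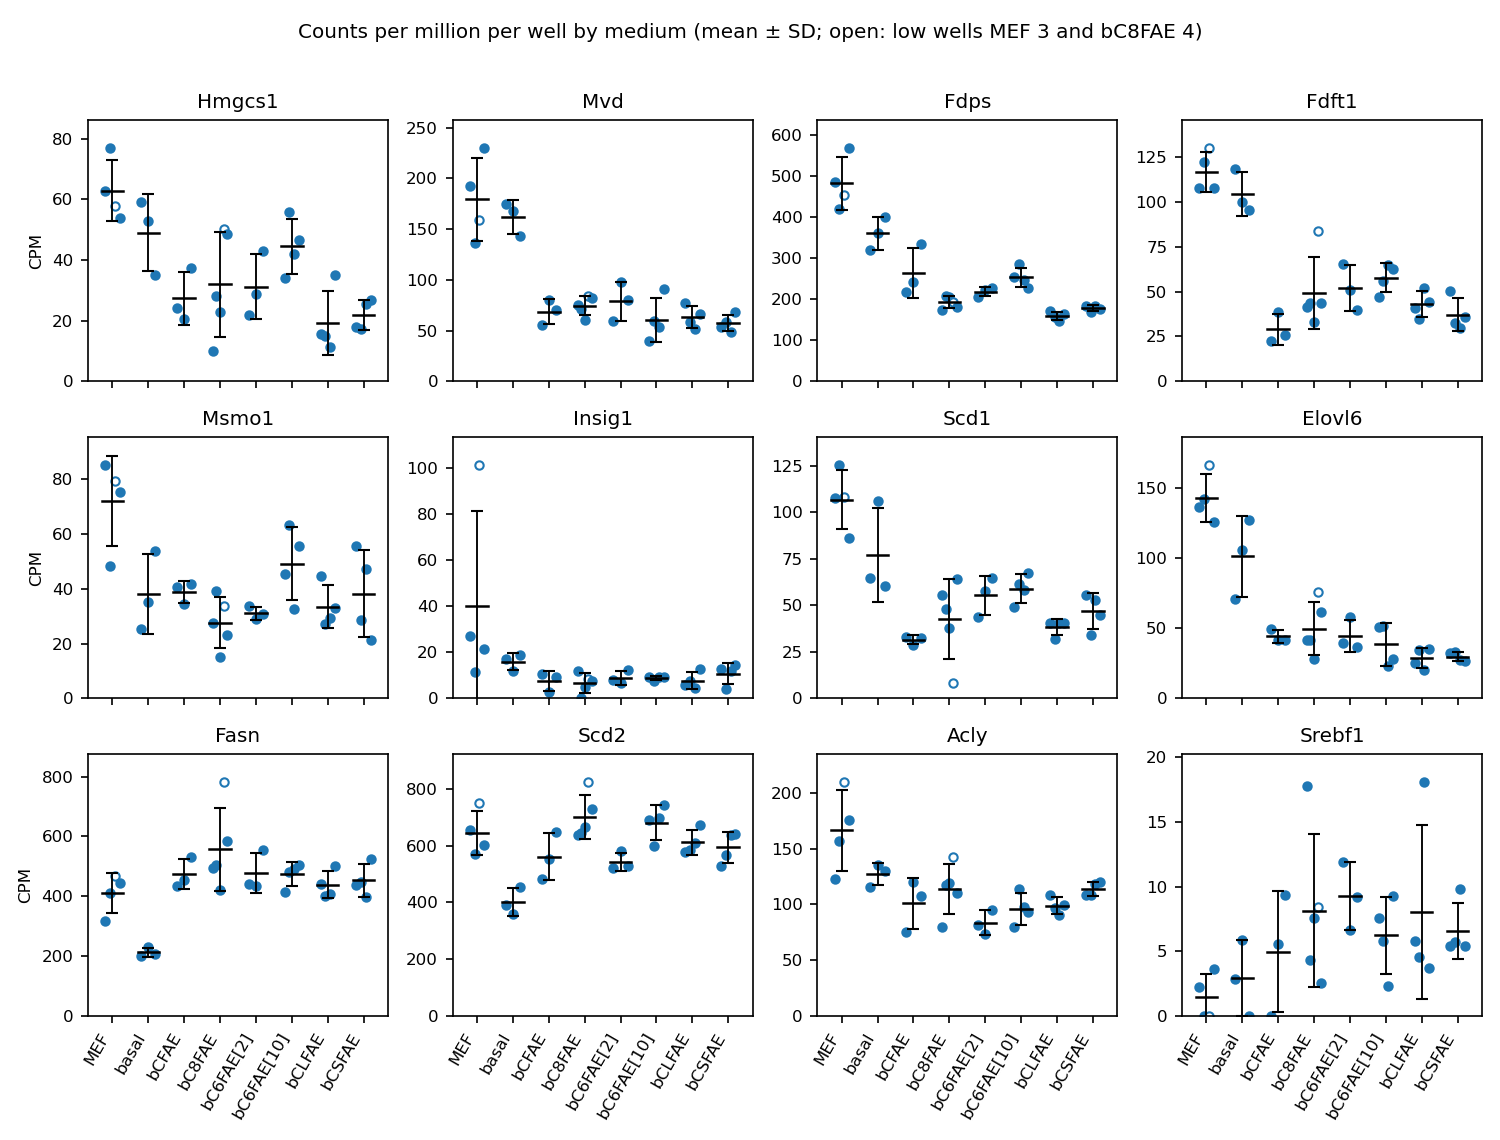
CPM in each well (points; open points are the low-total wells MEF 3 and bC8FAE 4) with mean ± SD for 12 genes, by medium; the y axis starts at 0. Mvd and Fdft1 are high in the MEF and basal wells and low in the other media, while Fasn is lowest in the 3 basal wells (200.3 to 229.3 CPM).

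The mevalonate steps open the sterol branch. Mvk, mevalonate kinase (chr5:114444269-114460591, mm10, GENCODE vM21), stood at 138.8, 196.3, 144.3 and 186.7 CPM in the MEF wells and at 49.47, 63.04, 55.71, 58.75 and 81.94 in the bC8FAE wells. The groups did not overlap, and the log2 difference was -1.51 ± 0.19 (SE; edgeR adjusted p = 1.34e-09). Overlap only describes the wells here, since the share of all genes without overlap between a pair of media is not given. Mvd, mevalonate diphosphate decarboxylase (chr8:122433601-122443422), stood at 192.6, 136.6, 158.7 and 229.8 CPM in MEF and at 75.19, 71.74, 60.77, 83.92 and 81.94 in bC8FAE, again without overlap (log2 difference -1.37 ± 0.18, edgeR adjusted p = 8.49e-09). Hmgcs1 (chr13:119690379-119708260) was at 53.86 to 76.83 CPM in MEF and at 9.893 to 50.35 in bC8FAE, where 5 of 5 wells were below every MEF well (-1.25 ± 0.30). Pmvk, the kinase between Mvk and Mvd, had a log2 difference of -1.43 ± 0.20. Acat2, the cytosolic thiolase at the head of the branch, fell by 0.60 on the log2 scale, and here the groups overlapped through the low-total well bC8FAE 4 (209.8 CPM). Idi1, the isopentenyl isomerase, was too low to test: it had 5 counts in all MEF wells together, 1 in bC8FAE and 0 in the 4 bCSFAE wells, which allows a level of up to 1.29 CPM there (3 counts, counting error only).

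The prenyl and squalene steps showed the same direction. Fdps, farnesyl diphosphate synthase (chr3:89093588-89101959), stood at 485.9, 418.3, 454.6 and 567.3 CPM in MEF and at 174.1, 208.7, 205.1, 193.0 and 181.8 in bC8FAE. These groups lie far apart, with a log2 difference of -1.40 ± 0.13 (edgeR adjusted p = 4.35e-14). Fdft1, squalene synthase (chr14:63145150-63179578), stood at 107.5, 122.4, 129.9 and 107.7 CPM in MEF and at 41.55, 43.48, 32.92, 83.92 and 43.53 in bC8FAE (-1.46 ± 0.20, edgeR adjusted p = 1.23e-08). Its exons overlap those of Ctsb on the other strand, and because no label says whether strand was used in counting, their reads cannot be told apart. Sqle, the squalene epoxidase, was not called (log2 difference -0.47 ± 0.20, edgeR adjusted p = 0.0684).

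The steps from lanosterol to cholesterol followed with more scatter. Lss, lanosterol synthase, fell by 1.26 on the log2 scale from a mean of 26.06 to 10.41 CPM, and Cyp51, lanosterol demethylase, fell by 0.96. The groups overlapped for both. Tm7sf2, a sterol reductase (-1.19 ± 0.20), Msmo1, a sterol methyl oxidase (-1.45 ± 0.28), Nsdhl, a sterol decarboxylase (-1.39 ± 0.31), and Dhcr7, the last reductase (-1.25 ± 0.22), fell without overlap between the groups. Hsd17b7, a ketosteroid reductase (-0.28), Ebp, a sterol isomerase (-0.90), and Sc5d, a sterol desaturase (-0.94), were not called, at mean levels of 10.86 to 46.1 CPM. Exons of Cyp51 overlap Akap9 and those of Lss overlap 4930483K19Rik on the other strand, and exons of Tm7sf2 overlap Vps51 on the same strand. Elsewhere in the 2 branches and the regulators, exons of Hmgcs1 overlap Gm48342, Idi1 Gm48574 and Elovl6 Gm35986 on the other strand. Exons of Fdps overlap Gm43738, Scd2 Mir5114 and Srebf1 Mir6922 on the same strand.

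The fatty acid branch held genes with opposite differences. Fasn, fatty acid synthase (chr11:120805846-120824547), stood at 317.9, 409.7, 469.0 and 445.2 CPM in MEF and at 492.7, 504.3, 420.3, 780.5 and 583.9 in bC8FAE. The groups overlapped and the rise was small (log2 difference 0.33 ± 0.13, edgeR adjusted p = 0.0373). Elovl6, the elongase of palmitate (chr3:129532355-129638495), stood at 136.6, 142.3, 166.0 and 125.7 CPM in MEF and at 41.55, 41.3, 27.85, 75.53 and 61.46 in bC8FAE, without overlap (-1.69 ± 0.20, edgeR adjusted p = 3.92e-10). Scd1, a stearoyl-CoA desaturase (chr19:44394455-44407879), was at 86.17 to 125.2 CPM in MEF and at 8.392 to 64.02 in bC8FAE (-1.22 ± 0.21). Its neighbour Scd2 (chr19:44293674-44306864), at 569.1 to 750.4 CPM in MEF and 637.1 to 822.5 in bC8FAE, was not called (0.03 ± 0.11). The 2 desaturase genes are paralogs, and no label says how reads matching both were counted. Acly, the ATP citrate lyase that supplies acetyl-CoA, fell by 0.61. Acaca, the acetyl-CoA carboxylase, was higher in each bC8FAE well (25.72 to 75.53 CPM) than in the MEF wells (20.15 to 25.61) but was not called (0.61 ± 0.35, edgeR adjusted p = 0.194). Fads1, a front-end desaturase, was not called (-0.34 ± 0.16), and Fads2, at 0 to 14.43 CPM, did not pass the filter.

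Among the regulators, Stard4, a carrier of cholesterol between membranes, fell by 1.32 on the log2 scale, from 25.61 to 57.72 CPM in MEF to 10.13 to 17.81 in bC8FAE. Srebf2 was not called (-0.09 ± 0.19). Insig1 and Srebf1 passed only without the filter on low counts. Insig1 stood at 26.87, 11.38, 101.0 and 21.54 CPM in MEF and at 11.87, 0.0, 5.064, 8.392 and 7.682 in bC8FAE (-2.19 ± 0.46, edgeR adjusted p = 4.32e-05 without the filter), and its highest value came from the low-total well MEF 3. Srebf1 stood at 2.239, 0.0, 0.0 and 3.59 CPM in MEF and at 17.81, 4.348, 7.596, 8.392 and 2.561 in bC8FAE, which rest on 2 and 16 counts in all and were not called (edgeR adjusted p = 0.0815). Srebf1 also shares exon sequence with Rai1 on the other strand.

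Leaving out single wells moved 3 of these calls. Fasn was not called without MEF 1, MEF 2, bC8FAE 4 or bC8FAE 5 (edgeR adjusted p 0.264, 0.0517, 0.0519 and 0.0902), Lss without bC8FAE 1 or bC8FAE 5 (0.0676 and 0.051), and Cyp51 without MEF 4 (0.0509). Fasn was also not called when only the MEF and bC8FAE wells entered the fit (edgeR adjusted p = 0.144). Markers of other cell types differed between these media too. Adipocyte markers summed to 93.35 to 187.6 CPM in MEF wells, 149.2 to 285.1 in basal wells and 0 to 16.78 in all other media. Only 6 of the 9 adipocyte markers listed were in the count table. The 2 tested, Fabp4 and Lpl, fell in bC8FAE. Plin1 was at 0 in all 8 media, and Adipoq was at 0 in MEF and in every other medium except basal. Macrophage markers summed to 152.3 to 346.3 CPM in MEF and 32.61 to 83.92 in bC8FAE, with Ptprc at 0. Of the 11 fibroblast markers, 9 fell and Thy1 and Vim rose in bC8FAE. The part of these markers in the sterol and fatty acid differences was not tested.

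Between bCFAE and basal wells the same question can be asked with other wells. Of 17 sterol genes tested, 8 fell and 0 rose, with a median log2 difference of -0.80 against 0.01 over all genes, where 17.9% of all genes were called lower and 16.5% higher. Fdft1 stood at 118.5, 99.94 and 95.22 CPM in basal and at 22.59, 38.6 and 25.62 in bCFAE (-1.95 ± 0.23, edgeR adjusted p = 4.53e-10). No bCFAE well reached any basal well. Here too, overlap only describes the wells. Pmvk (-1.41 ± 0.25), Mvd (-1.37 ± 0.20), Tm7sf2 (-1.21 ± 0.26), Mvk (-1.14 ± 0.22) and Acat2 (-1.08 ± 0.19) also fell without overlap, while Hmgcs1 (-1.05 ± 0.34) and Fdps (-0.60 ± 0.14) fell with overlapping groups. The later sterol genes differed little or were uncertain: Sqle, Cyp51, Msmo1, Hsd17b7, Ebp and Sc5d lay between -0.28 and 0.42, and Lss, Nsdhl and Dhcr7 between -0.95 and -0.61, none of them called.

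In the same comparison, 5 of 7 fatty acid genes were called, where 34.5% of all genes were called in either direction. Fasn stood at 200.3, 229.3 and 206.3 CPM in basal and at 435.2, 453.5 and 531.0 in bCFAE, and rose by 1.02 ± 0.16 on the log2 scale (edgeR adjusted p = 3.33e-07). All 3 bCFAE wells lay above all 3 basal wells. Scd2 rose from 389.4, 358.6 and 453.9 CPM to 481.9, 551.4 and 647.4 (0.35 ± 0.13, edgeR adjusted p = 0.0353). Scd1 fell from 60.31 to 105.8 CPM to 28.95 to 33.13 (-1.43 ± 0.27), and Elovl6 fell from 70.54 to 127.0 CPM to 41.35 to 49.69 (-1.30 ± 0.23). Acly fell by 0.47 and Stard4 by 1.17, while Srebf2 was not called (-0.21 ± 0.23). Acaca was at 6.348 to 14.7 CPM in basal and 19.58 to 27.57 in bCFAE without a call (0.97 ± 0.50). Without TMM scaling, the median of all genes in this comparison moved by 0.13 on the log2 scale, and none of these directions changed. The Acly call was lost in that fit (edgeR adjusted p = 0.159), in DESeq2 (0.0716) and without the filter on low counts (0.23). It was also lost without bCFAE 1 or 3 or without any basal well (edgeR adjusted p 0.0502 to 0.323). The Scd2 call was lost without bCFAE 2 or 3 or basal 1 or 2 (0.058 to 0.209), the Hmgcs1 call without bCFAE 2 or basal 1 or 2 (0.0522 to 0.1), and the Stard4 call without bCFAE 2 or 3 or basal 2 (0.0736 to 0.227). Of the 11 fibroblast markers, 9 fell and Vim rose in bCFAE. Summed adipocyte markers were at 149.2 to 285.1 CPM in basal and 2.329 to 4.518 in bCFAE, macrophage markers at 98.76 to 276.1 and 45.49 to 46.68, and epithelial markers at 28.57 to 52.91 and 100.9 to 121.1, with Epcam and Cdh1 at 0 in both media. The part of these markers in the result was not tested.

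**Figure D2:**
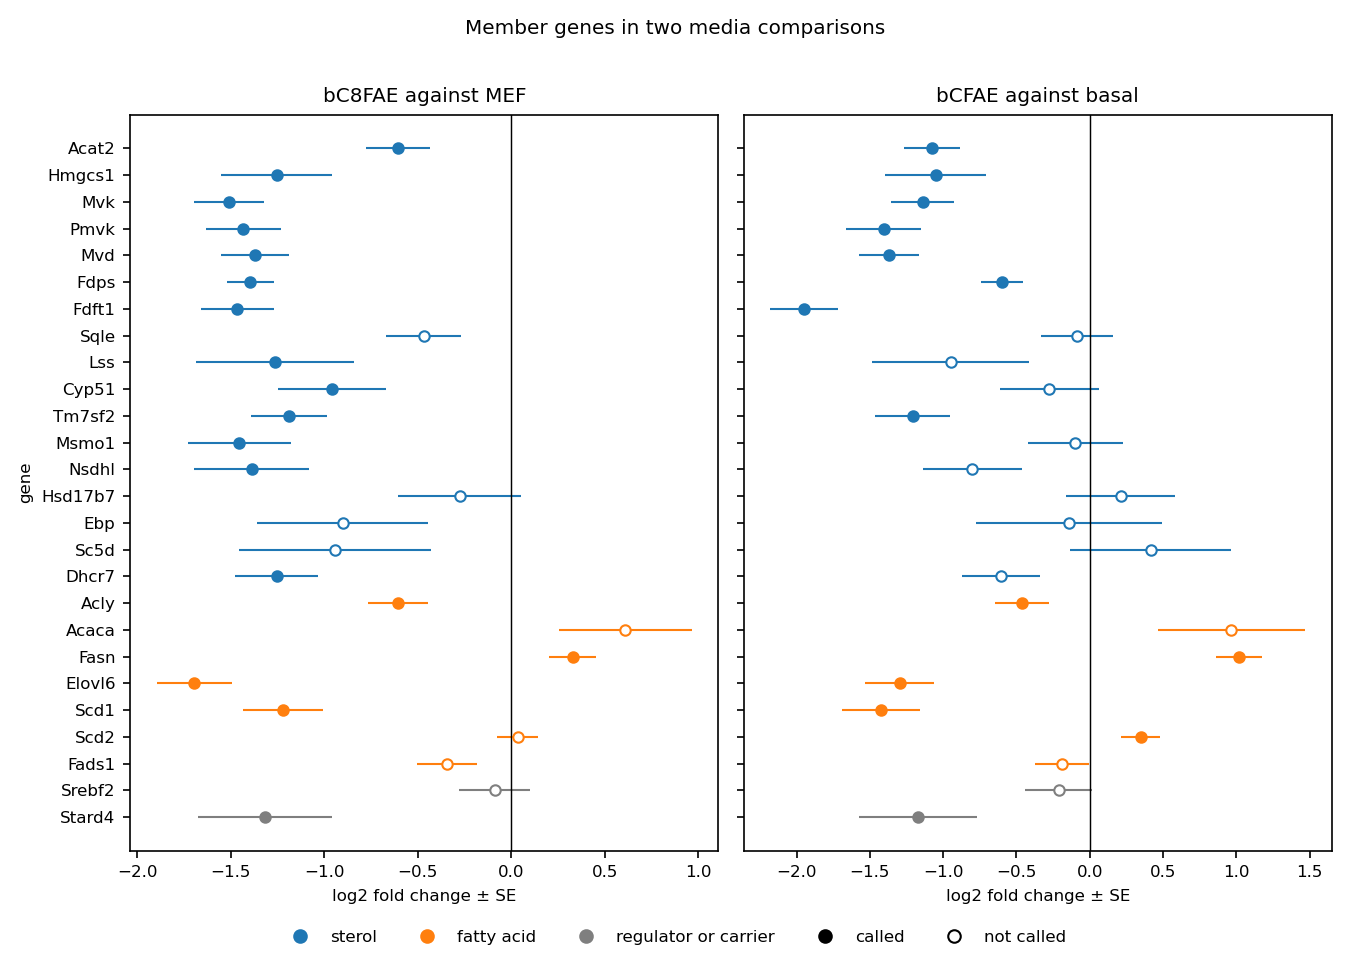
Log2 fold change ± SE from the edgeR fit for the 26 genes tested, bC8FAE against MEF (left) and bCFAE against basal (right), coloured by branch, with filled points for called genes. Most sterol points lie left of 0, while Fasn lies right of 0 at 0.33 and 1.02.

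Basal against MEF wells gave 0 called sterol genes of 17 in edgeR, where 0.316% of all genes were called lower. At an unadjusted p under 0.05 there were 8 sterol genes, and DESeq2 called 0. The sterol median was -0.51 against -0.01 over all genes. In the fatty acid branch, Fasn fell from 317.9 to 469.0 CPM in MEF to 200.3 to 229.3 in basal (-0.88 ± 0.16, edgeR adjusted p = 0.000469), and Scd2 fell from 569.1 to 750.4 CPM to 358.6 to 453.9 (-0.62 ± 0.13, edgeR adjusted p = 0.0042). Neither gene's groups overlapped. The Scd2 call was lost without basal 1 or basal 2 (edgeR adjusted p 0.0508 and 0.0982) and with only the MEF and basal wells in the fit (0.084). Acaca was at 6.348 to 14.7 CPM in basal wells, below every MEF well, and was not called (-1.03 ± 0.54). Among the markers, Fabp4 rose and Dcn fell in basal wells, and their part in the result was not tested.

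When all wells were laid side by side, a division of the media made after the levels were seen, 3 of 17 sterol genes had every one of the 23 wells of the other 6 media below every one of the 7 MEF and basal wells. These were Mvk (33.32 to 86.48 against 115.7 to 196.3 CPM), Mvd (39.65 to 97.74 against 136.6 to 229.8) and Fdft1 (22.59 to 83.92 against 95.22 to 129.9). No fatty acid gene and no regulator did so. The background is that 4.7% of all genes tested had the 23 wells wholly below, and 4.59% wholly above. This is a description without a test.

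Other genes of these pathways were taken from a list of 39, of which 25 were tested. In bC8FAE against MEF, 3 rose and 10 fell, where 14.8% of all genes were called higher and 17.3% lower. Those that fell included Acss2, which makes acetyl-CoA from acetate (log2 difference -1.66), and Elovl5, an elongase of polyunsaturated fatty acids (-1.57). Those that rose were Por, the electron donor of Cyp51 and Sqle (2.05), Mid1ip1, an activator of acetyl-CoA carboxylase (0.78), and Npc2, a lysosomal sterol carrier (0.52). In bCFAE against basal, 3 rose (Mid1ip1 1.99, Por 1.67 and Scap 0.50) and 7 fell, led by Mylip, the ligase that degrades the LDL receptor (-3.94), where 16.5% of all genes were called higher and 17.9% lower.

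The 5 remaining media without compound were compared with bCFAE, and these comparisons share the 3 bCFAE wells. Their differences in the sterol and fatty acid genes were few. Fdps, at 218.3, 241.2 and 333.0 CPM in bCFAE, fell in bC8FAE to 174.1 to 208.7 (-0.42 ± 0.13), in bCLFAE to 146.8 to 170.7 (-0.69 ± 0.14) and in bCSFAE to 168.1 to 183.5 (-0.57 ± 0.13). It was the only one of 26 genes called in each of these, where 5.89%, 3.36% and 3.07% of all genes were called lower. In bC8FAE the Fdps call was lost without bC8FAE 1, 4 or 5 or without bCFAE 3 (edgeR adjusted p 0.0546 to 0.365), in DESeq2 (0.0554) and with only the wells of these 2 media (0.114). In bCSFAE it was lost without bCFAE 3 (0.125). In bC6FAE[2], 2 of 26 genes rose, where 4.83% of all genes were called higher: Fdft1, at 39.95 to 65.43 against 22.59 to 38.6 CPM (0.93 ± 0.25), and Scd1, at 43.62 to 64.53 against 28.95 to 33.13 (0.86 ± 0.28). In bC6FAE[10], 6 of 26 rose, where 7.54% of all genes did: Fdft1 (0.99 ± 0.23), Scd1 (0.94 ± 0.25), Tm7sf2 (0.67 ± 0.24), Sqle (0.58 ± 0.19), Srebf2 (0.55 ± 0.18) and Scd2 (0.33 ± 0.12). Fdft1 and Scd1 kept their call in bC6FAE[10] under every single-well omission, and the other 4 did not. The other 4 were lost without bCFAE 1 or bCFAE 2 (edgeR adjusted p 0.0516 to 0.349 and 0.0589 to 0.155) and without bC6FAE[10] 4 (0.0631 to 0.228). Omitting bC6FAE[10] 1 ended the calls of Scd2, Sqle and Tm7sf2 (0.0836 to 0.114), omitting bCFAE 3 those of Srebf2 and Tm7sf2 (0.119 and 0.0724), omitting bC6FAE[10] 3 those of Scd2 and Srebf2 (0.0916 and 0.0653), and omitting bC6FAE[10] 2 that of Tm7sf2 (0.09). In bC6FAE[2], the Fdft1 call was lost without bC6FAE[2] 1 or bCFAE 1 (0.193 and 0.112), and the Scd1 call without bC6FAE[2] 2 or 3 or any bCFAE well (0.0631 to 0.154). Of the fibroblast markers, 6 rose and Fn1 and Vim fell in each of these 2 media, and the part of these markers in the result was not tested.

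Between the 2 bC6FAE media, edgeR called 0 of 26 genes, with 2 (Msmo1 and Scd2) at an unadjusted p under 0.05 and 0 in DESeq2, where 0.402% of all genes were called. Between bCLFAE and bCSFAE it also called 0 of 26, with 1 (Pmvk) at an unadjusted p under 0.05 and 0 in DESeq2, where 0.0287% of all genes were called. The fatty acid genes called in bC8FAE, bCLFAE and bCSFAE against bCFAE numbered 0 in edgeR, with 3, 1 and 2 at an unadjusted p under 0.05 and 1 (Scd2), 0 and 0 in DESeq2.

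In the compound screen, a compound's well was compared with all other screening wells of its plate, so compounds of a plate share their reference. Of 211 compounds, 12 had at least 1 of the 30 genes called and 50 had any gene called at all. Over 5436 tests of these genes, 40 calls were lower and 4 were higher, and 329 tests had an unadjusted p under 0.05. Over all genes and compounds pooled, 0.275% of tests were called lower and 0.365% higher. Sterol genes made up 21 lower and 3 higher calls of 3286 tests, fatty acid genes 17 lower and 1 higher of 1477, and regulators 2 lower of 673. By gene, Scd2 was lower in 6 compounds, Acat2 and Fasn in 5 each, and Mvd and Dhcr7 in 3 each.

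The most calls came from NT157, an inhibitor described as acting on insulin receptor substrates, with 14 of 27 genes lower on plate 2. In that well 13.0% of all genes were called lower and 15.1% higher. Fasn stood at 73.26 CPM, below all 86 other wells (233.5 to 759.1, median 474.7), and fell by 2.65 ± 0.40 on the log2 scale (edgeR adjusted p = 8.64e-08). Fads1 (46.27 CPM against 86.63 to 250.3) fell by 1.63, Scd2 (377.9 against 486.2 to 1594) by 1.10 and Elovl6 (11.57 against 16.97 to 79.2) by 1.46. Acaca had 2 counts, a ratio of 0.127 to the other wells with a 95% counting interval of 0.0154 to 0.459. In the sterol branch, Fdps at 48.2 CPM against 147.9 to 585.1 (log2 difference -2.15), Fdft1 at 11.57 against 25.92 to 93.6 (-1.99), Dhcr7 (-1.66), Hmgcs1 (-1.64), Acat2 (-1.52), Pmvk (-1.39) and Mvk (-1.37) fell. Tm7sf2 had a single count, a ratio of 0.0348 (counting interval 0.000881 to 0.194). Srebf2 fell by 1.91, from a plate median of 104.5 to 26.99 CPM. Both branches and Srebf2 thus held called genes in this well, with no gene of the 27 higher.

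LDC4297, a CDK7 inhibitor on plate 3, had 9 of 27 genes lower, where 10.3% of all genes were called lower. Of its fatty acid genes, 5 fell: Scd2 at 200 CPM against 151.2 to 912.2 in the other 45 wells (-1.91 ± 0.39, edgeR adjusted p = 0.000425), Fasn at 170.0 against 200.8 to 780.5 (-1.69), Acaca at 12.0 against 10.28 to 75.53 (-1.56), Elovl6 at 18 against 15.75 to 91.22 (-1.54) and Fads1 at 90.0 against 97.09 to 193.0 (-0.79). Of its sterol genes, Acat2 (-1.90), Dhcr7 (-1.59) and Pmvk (-1.58) fell, and Srebf2 fell by 1.0. Without TMM scaling 5 of the 9 calls were lost (Dhcr7, Elovl6, Fads1, Pmvk and Srebf2, edgeR adjusted p 0.0531 to 0.0975), and without the filter on low counts these and Acaca were lost (0.0512 to 0.0915). The Dhcr7 call was also lost with the bC8FAE wells as the reference (0.0615). APTO_253, described as a MYC inhibitor, had 5 of 24 genes lower on plate 1, where 1.77% of all genes were called lower. In that well Acat2 was at 20.0 CPM and Fdps at 90.0 CPM, each below all 89 other wells (-2.18 ± 0.50 and -1.49 ± 0.44), and Mvk (-2.12), Scd2 (-1.44) and Fasn (-1.31) fell as well.

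The other compounds with a call had 1 to 3 genes each. MCB_613, described as a stimulator of steroid receptor coactivators, had Mvd at 7.741 CPM (4 counts), below all other wells (20.0 to 126.3), and Mvd (log2 difference -3.08), Fdft1 (-1.93) and Fasn (-1.29) fell, where 1.99% of all genes were lower. BMS_3, a LIM kinase inhibitor, had Mvd (-2.19), Acat2 (-2.0) and Dhcr7 (-1.72) lower (0.945% of all genes). CC_115, an inhibitor of mTOR and DNA-PK present in 2 wells, had Acat2 at 49.76 and 50.69 CPM (-1.0 ± 0.27) and Scd2 at 548.5 and 486.2 (-0.82 ± 0.21), where 0.329% of all genes were lower. Both CC_115 calls were lost without TMM scaling (edgeR adjusted p 0.0732 for Acat2 and 0.0702 for Scd2) and without the filter on low counts (0.0862 and 0.0509), which leaves this compound with no call. Scd2 alone was lower with PF_04979064 (204.5 CPM, -2.07 ± 0.43, 1.65% of all genes lower) and with BEZ235 (151.2 CPM, -2.06 ± 0.41, 4.84%), both dual PI3K/mTOR inhibitors, and in each case the well was below all others of its plate. FIIN_2, an FGFR inhibitor, had Mvd lower (20.2 CPM, 7 counts, -2.02, 4.59%). Trametinib, a MEK inhibitor, had the desaturase Scd1 at 164.5 CPM, above all 89 other wells (14.56 to 120.7, log2 difference 1.51 ± 0.38). Its Fasn stood at 172.6 CPM, below all of those wells (204.5 to 850.5, -1.70 ± 0.42). Of all genes, 7.45% were called higher and 5.69% lower with Trametinib. BEZ235 and FIIN_2 each had 1 of 27 genes called, and Trametinib 1 higher and 1 lower of 24. None of these counts exceeds the share over all genes.

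Higher calls in the sterol branch came from 2 compounds. NVP_BSK805_2HCl, a JAK2 inhibitor, had Fdps at 585.1 CPM against 48.2 to 420.0 in the other 86 wells (1.35 ± 0.27) and Msmo1 at 109.5 CPM against 6.588 to 83.04 (1.5 ± 0.30). Only 10 of 9417 genes (0.106%) were called higher in that well, and the edgeR adjusted p was 0.0109 for each gene. LY3009120, a pan-RAF inhibitor, had Mvk at 139.4 CPM, above all 45 other wells (26.31 to 101.2, log2 difference 1.22 ± 0.31). This was 1 of 27 genes, near the 3.15% of all genes called higher. Without TMM scaling the median of all genes moved by 0.10 to 0.26 for APTO_253, MCB_613, Trametinib, BMS_3, CC_115, FIIN_2 and LDC4297. No called gene changed direction with it, but it ended the calls of Fasn with APTO_253 (edgeR adjusted p = 0.0615) and MCB_613 (0.0568) and of Dhcr7 with BMS_3 (0.0682), beside those of CC_115 and LDC4297. Without the filter on low counts, the calls of Fasn, Fdps and Mvk with APTO_253 (0.0691 to 0.0971), Fasn with MCB_613 (0.101), Dhcr7 with BMS_3 (0.0847) and Elovl6 and Hmgcs1 with NT157 (0.0593 and 0.0598) were lost. Those of NT157 were also lost at the stricter yield filter of 25% (0.0544 and 0.0502). Each of these compounds other than CC_115 rests on 1 well, so the spread is that of the plate and no replicate check exists.

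A branch level was formed for each well, the mean log2(CPM + 1) over the branch's tested genes minus the plate's median over wells, to place all wells on 1 scale. Its SD over wells was 0.28, 0.26 and 0.20 for the sterol branch and 0.28, 0.27 and 0.28 for the fatty acid branch on plates 1, 2 and 3. The branches went together on plates 1 and 2 (Pearson 0.58 over 90 wells and 0.64 over 87) and less closely on plate 3 (0.33 over 46 wells), as a description with no test. These wells share a library and differ in depth. The fatty acid level was lower in wells with higher totals (Spearman -0.31, -0.34 and -0.34), the sterol level less so (-0.08, -0.20 and -0.06), and the part of depth was not tested.

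**Figure D3:**
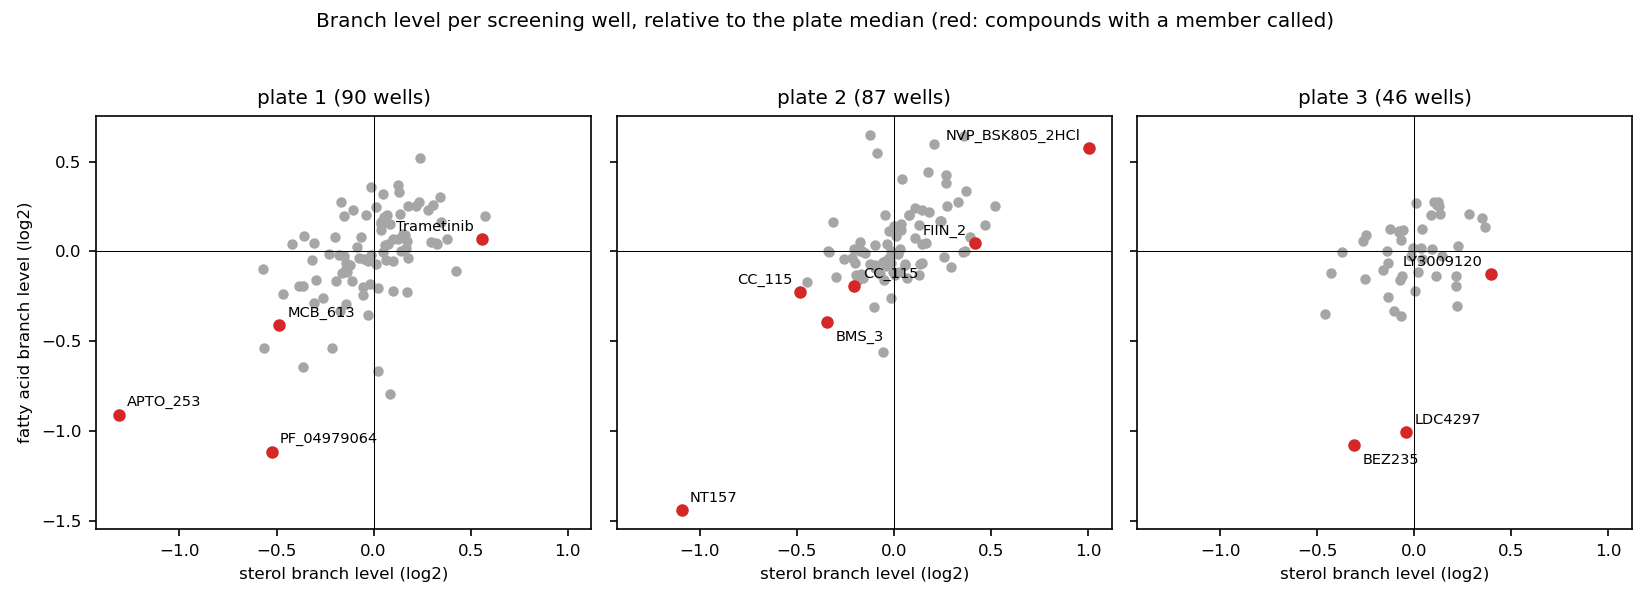
Sterol level (x axis, log2) against fatty acid level (y axis, log2) of each screening well relative to the plate median, for 3 plates; red points are compounds with a gene called. NT157 and APTO_253 lie low on both axes, PF_04979064, BEZ235 and LDC4297 mainly on the fatty acid axis, and NVP_BSK805_2HCl lies high on both.

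On plate 1 the lowest sterol levels were those of APTO_253 (-1.31), the PI3K inhibitor PF_4989216 (-0.57), Coptisine (-0.56), PF_04979064 (-0.53) and MCB_613 (-0.49). The highest were 2 MEK inhibitors, GDC_0623 (0.58) and Trametinib (0.56), followed by CCT196969 (0.42), GSK2606414 (0.38) and AZD6482 (0.35). The lowest fatty acid levels there were those of PF_04979064 (-1.12), APTO_253 (-0.91), Ro_5126766 (-0.79), SU14813 (-0.66) and GNE_317 (-0.64), of which Ro_5126766 had the lowest total tested, 45388 counts. The highest were PDK1_inhibitor (0.52), Toceranib (0.37; Toceranib_(phosphate) was at 0.04), CGP_57380 (0.36), Hydroxyfasudil (0.33) and TEPP_46 (0.32). These highest wells had totals of 148153 to 245576 counts, below the median of 318650.5 over the compound wells tested on the plate.

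On plate 2, NT157 was lowest in both branches (sterol -1.09, fatty acid -1.44). It was followed in the sterol branch by CC_115_(hydrochloride) (-0.48; the other CC_115 well was at -0.20), PF_04217903 (-0.45), BMS_3 (-0.35) and AXL1717 (-0.34), and in the fatty acid branch by Avitinib (-0.56), BMS_3 (-0.39), CCT245737 (-0.31) and UNC2025 (-0.26). NVP_BSK805_2HCl was highest in sterol level (1.01), ahead of Tepotinib (0.52), Bemcentinib (0.47), FIIN_2 (0.42) and Flumatinib (0.39; Flumatinib_(mesylate) was at 0.15). The highest fatty acid levels were those of Doramapimod (0.65), AST_487 (0.64), T56_LIMKi (0.60), NVP_BSK805_2HCl (0.57) and DCC_2618 (0.55). All of these except NVP_BSK805_2HCl, the deepest well at 1204995 counts, had totals of 151799 to 218248 counts, below the plate median of 610684.

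On plate 3 the lowest sterol levels were those of Rigosertib (-0.46), GDC_0941 (-0.43), Regorafenib_(Hydrochloride) (-0.37; Regorafenib_(monohydrate) was at 0.09), BEZ235 (-0.31) and Belizatinib (-0.26), and the highest were LY3009120 (0.39), Senexin_A (0.36), the wells bC8FAE 5 and bC8FAE 4 without compound (0.35 and 0.28), and MRT67307 (0.22). The wells bC8FAE 1, bC8FAE 2 and bC8FAE 3, also without compound, had sterol levels of -0.16, -0.07 and -0.25. Wells without compound thus spread from -0.25 to 0.35 in sterol level, against -0.46 to 0.39 over all screening wells of the plate. The lowest fatty acid levels were those of BEZ235 (-1.08) and LDC4297 (-1.01), well apart from SC66 (-0.36), Rigosertib (-0.35) and Afuresertib (-0.33). The highest, Crizotinib, CX_4945, CHIR_99021, Necrostatin_1 and AT7867, lay between 0.26 and 0.28. Their totals were 230207 to 427376 counts, below the median of 438228 over the compound wells tested on the plate.

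Pairs of genes were also followed over the screening wells with at least 25% of their plate's median total (89, 86 and 46 wells), as a description. The median Spearman correlation between 2 sterol genes was 0.15, 0.23 and 0.08 on plates 1, 2 and 3, and between 2 fatty acid genes 0.13, 0.30 and 0.25. Ranked by the lowest of its 3 values, the closest pair was Acat2 with Scd2 (0.50, 0.66 and 0.47), a sterol and a fatty acid gene, followed by Elovl6 with Scd2 (0.48, 0.45 and 0.61) and Fdft1 with Scd2 (0.52, 0.45 and 0.47). The wells of a plate share a library and differ in depth, and weak correlations in counts this sparse are no finding.

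Compounds were then grouped by main target, from general knowledge of the compounds. Of 26 classes, 5 had a gene called. The 5 inhibitors of mTOR, the nutrient-sensing kinase, or of PI3K and mTOR together (GNE_317, PF_04979064, PI_103, CC_115 in 2 wells, and BEZ235) had lower calls in both branches. Of 16 sterol genes tested 7 fell, of 7 fatty acid genes 4 fell, and of 26 genes in all 0 rose, with median log2 differences of -0.39 and -0.40 against 0.00 over all genes, where 9.52% of all genes were called lower and 10.6% higher. PF_04979064, CC_115 and BEZ235 also had calls of their own, so the class values are not independent of those.

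Scd2 stood at 478.9 CPM with GNE_317, 204.5 with PF_04979064 and 637.1 with PI_103, against a median of 880.0 in the 87 other wells of plate 1. It stood at 548.5 and 486.2 with CC_115 against a median of 828.2 on plate 2, and at 151.2 with BEZ235 against 665.9 on plate 3. All 6 wells lay below their plate's median, and the log2 difference was -1.0 ± 0.14 (edgeR adjusted p = 1.1e-08). Elovl6 was at 5.351, 6.198 and 22.66 CPM on plate 1 (2, 1 and 9 counts; median 41.99), at 18.51 and 33.41 on plate 2 (median 33.23) and at 15.75 on plate 3 (median 44.13), which gave -0.99 ± 0.24. The hydrochloride well of CC_115 was thus level with its plate for this gene. Fasn fell by 0.61 ± 0.16 and Acly by 0.40 ± 0.15, while Scd1 (-0.29), Fads1 (-0.12) and Acaca (-0.06) were not called.

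In the sterol branch, Tm7sf2 fell by 1.01 ± 0.25 and Acat2 by 0.79 ± 0.18. Acat2 was at 64.21, 30.99 and 78.06 CPM on plate 1 (median 88.16), at 49.76 and 50.69 on plate 2 (median 91.21) and at 37.81 on plate 3 (median 100.8), below the median in 6 of 6 wells. Fdft1 (-0.70 ± 0.19), Mvd (-0.69 ± 0.21), Mvk (-0.66 ± 0.19), Hsd17b7 (-0.64 ± 0.25) and Pmvk (-0.56 ± 0.21) fell too. The other 9 sterol genes tested were not called: Fdps (-0.39, edgeR adjusted p = 0.0609), Dhcr7 (-0.39), Hmgcs1 (-0.35), Msmo1 (-0.06), Sqle (-0.04), Nsdhl (-0.03), Sc5d (0.09), Ebp (0.24) and Cyp51 (0.25). None of Srebf2, Insig1 and Stard4 was called (-0.22, -0.53 and -0.43). Of 25 other pathway genes tested, Nr1h2 rose (0.52) and 5 fell, among them Acss2 (-0.86), Tmem97 (-0.72) and Elovl1 (-0.53), where 10.6% of all genes were called higher and 9.52% lower.

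The calls of Scd2, Elovl6, Fasn, Acat2, Fdft1 and Mvk held without any 1 compound. Tm7sf2 was lost without CC_115 (edgeR adjusted p = 0.0846), Mvd without BEZ235 or CC_115 (0.0637 and 0.0957), Pmvk without BEZ235, CC_115, PF_04979064 or PI_103 (0.0502 to 0.172), Acly without BEZ235, CC_115, GNE_317 or PF_04979064 (0.0513 to 0.271), and Hsd17b7 without any of the 5 (0.0659 to 0.172). Acly, Hsd17b7 and Pmvk were also not called in DESeq2 (0.0838, 0.0673 and 0.052). In these wells fibroblast markers summed to 4060 to 6418 CPM, with Thy1 lower and Vim higher, and epithelial markers to 7.554 to 529.3, with Krt18 and Krt19 higher. The part of these markers in the result was not tested.

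**Figure D4:**
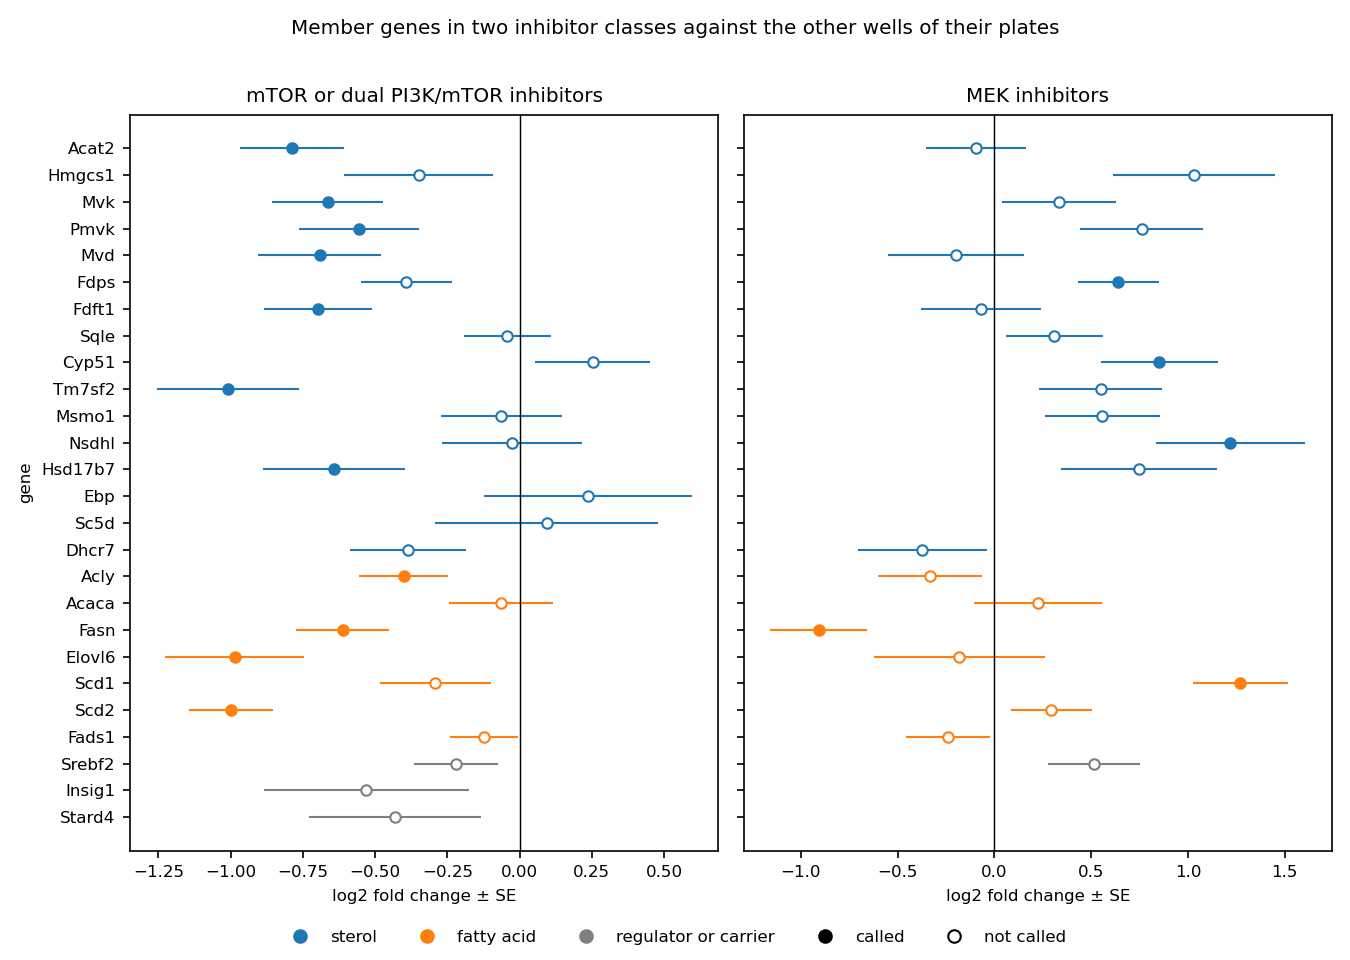
Log2 fold change ± SE from the edgeR fit of the mTOR or dual PI3K/mTOR class (left, 6 wells) and the MEK class (right, 3 wells) against the other wells of their plates, coloured by branch, with filled points for called genes. Scd2 is at -1.0 on the left, and Scd1 at 1.27 and Fasn at -0.91 on the right.

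Inhibitors listed under PI3K alone (10 compounds, 10 wells) had 0 of 22 genes called in edgeR, where 0.0% of all genes were called. There were 3 at an unadjusted p under 0.05 (Fdps, Pmvk and Scd1) and 0 in DESeq2. AKT inhibitors (5 wells) had 0 of 26 called, with 2 at an unadjusted p under 0.05 (Fdft1 and Sqle) and 0 in DESeq2, where 0.0% of all genes were called. The difference between the mTOR and the PI3K class was then tested itself, a comparison added after the class results were seen. Of 26 genes, 6 were lower with mTOR inhibitors and 0 higher, where 6.02% of all genes were called lower and 7.38% higher: Elovl6 (-0.97 ± 0.30), Acat2 (-0.92 ± 0.22), Tm7sf2 (-0.91 ± 0.31), Scd2 (-0.89 ± 0.17), Mvk (-0.75 ± 0.24) and Fasn (-0.73 ± 0.20). On plate 1, Fasn was at 204.5 to 455.8 CPM in the 3 mTOR wells and at 425.2 to 681.2 in the 9 PI3K wells, and Elovl6 at 5.351 to 22.66 and 23.29 to 60.44. Elovl6 did not overlap between these wells, and Fasn overlapped through PI_103. Of these 6, Tm7sf2 was not called without BEZ235, CC_115, GNE_317 or PF_04979064 (edgeR adjusted p 0.0607 to 0.223), Elovl6 not without BEZ235, GNE_317 or PF_04979064 (0.0606 to 0.0785), and Mvk not without BEZ235 or PF_04979064 (0.06 and 0.0709). The PI3K wells were on plates 1 and 3 only, so the 2 CC_115 wells of plate 2 had no PI3K well beside them and were set against the other wells of their plate. With no doses in the labels, the compounds may not be matched in dose.

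**Figure D5:**
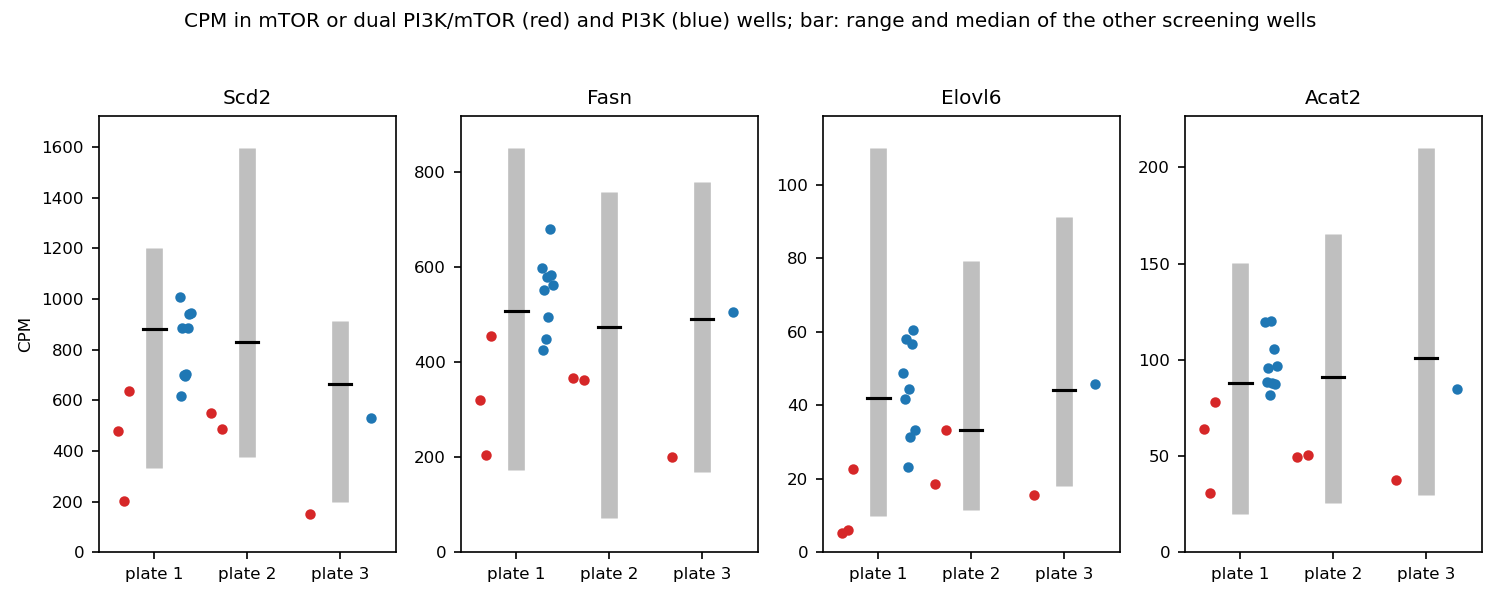
CPM of Scd2, Fasn, Elovl6 and Acat2 in mTOR or dual PI3K/mTOR wells (red) on 3 plates and PI3K wells (blue) on plates 1 and 3; the grey bar gives the range and the black line the median of the wells outside the mTOR class, and the y axis starts at 0. The red Scd2 points lie at 151.2 to 637.1, below the black line on each plate.

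MEK inhibitors (GDC_0623, Ro_5126766 and Trametinib, 1 well each on plate 1) had calls in both directions. Of 14 sterol genes, 3 rose and 0 fell, with a median of 0.55 against -0.06 over all genes, where 12.0% of all genes were called higher. Nsdhl, the sterol decarboxylase, stood at 39.21, 44.06 and 60.2 CPM against a median of 17.78 in the 87 other wells (1.22 ± 0.39, edgeR adjusted p = 0.0148), although the Ro_5126766 value is 2 counts. Cyp51 stood at 75.41, 66.1 and 60.2 CPM against 33.15 (0.85 ± 0.30), and Fdps at 413.3, 264.4 and 429.4 against 230.6 (0.64 ± 0.21). Hmgcs1 was at 42.23, 22.03 and 48.16 CPM against 17.55 and was not called (1.03 ± 0.42, edgeR adjusted p = 0.0619). Of 7 fatty acid genes, Scd1 rose and Fasn fell. Scd1 was at 120.7, 66.1 and 164.5 CPM against 47.39 (1.27 ± 0.25, edgeR adjusted p = 2.8e-05), and Fasn at 304.7, 462.7 and 172.6 against 507.4 (-0.91 ± 0.25, edgeR adjusted p = 0.0044), where 10.6% of all genes were called lower. Srebf2, the only regulator tested, was not called (0.52 ± 0.24). The Ro_5126766 values of Cyp51, Hmgcs1 and Scd1 also rest on very few counts, since the total of that well was 45388.

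Of 22 other pathway genes tested with MEK inhibitors, 4 rose, led by Me1, the malic enzyme that makes NADPH (1.27), and 5 fell, led by Por (-1.34), where 12.0% of all genes were called higher and 10.6% lower. Ro_5126766 had the lowest total of all wells tested, 45388 counts. Without Trametinib the calls of Fasn, Nsdhl, Cyp51 and Fdps were lost (edgeR adjusted p 0.277, 0.294, 0.109 and 0.22), and without GDC_0623 those of Cyp51 and Fdps (0.304 and 0.166). Without TMM scaling the median of all genes moved by 0.12, and no called gene changed direction. Fibroblast markers summed to 7227 to 10010 CPM in these wells, with 6 higher and 2 lower. Adipocyte markers summed to 22.03 to 232.8, with Lpl higher and Adipoq, Plin1, Plin4 and Pparg at 0. Epithelial markers summed to 0 to 870.9, with Krt8, Krt18 and Krt19 higher and Epcam and Cdh1 at 0. The part of these markers in the result was not tested.

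The remaining classes with a call had 1 gene each. In the RAF class Mvk rose (0.69 ± 0.20, edgeR adjusted p = 0.0315, 2.28% of all genes higher), which was at 64.68, 114.0 and 49.26 CPM on plate 1 (median 53.72) and at 139.4 with LY3009120 on plate 3 (median 58.72). The call was lost without CCT196969 or LY3009120 (0.519 and 1.0). FGFR inhibitors had Mvd lower (-0.74 ± 0.26, edgeR adjusted p = 0.0413), at 49.69, 20.2 and 54.01 CPM against a median of 68.57. A single call among the genes tested is no more than the 5.4% of all genes called lower. The Mvd call was lost without Erdafitinib or FIIN_2 (edgeR adjusted p 0.268 and 0.497). Inhibitors of VEGFR, PDGFR or KIT (18 compounds, 20 wells) had Scd2 higher by 0.27 ± 0.08 (edgeR adjusted p = 0.0298, 1.2% of all genes higher), lost without any 1 of BIBF_1120, Cediranib, Dovitinib, Regorafenib, SU14813 or Toceranib (0.0598 to 0.106). The other 21 classes had 0 genes called in edgeR, with 0 to 8 at an unadjusted p under 0.05, and DESeq2 called 0 in each except Acat2 with PLK4 inhibitors. Of all genes, 3.59% were called with PLK4, 1.7% with CDK1/2/7/9, 0.327% with AXL, 0.084% with PLK1, 0.0242% with LIMK, 0.0149% with ALK and 0.0125% with CDK4/6 inhibitors, and 0.0% in the others apart from CDK8/19. The 2 CDK8/19 inhibitors MSC2530818 and Senexin_A had differences of 0.03 to 0.74 in the 17 sterol genes, with a median of 0.34 against -0.02 over all genes and no call (0.158% of all genes called). Mvd, the lowest p of their sterol genes, was at 96.27 CPM (plate median 67.49) and 124.1 CPM (62.62), above 79 of 86 and 45 of 45 other wells (edgeR adjusted p = 0.698).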

How the data were processed

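DRUG-seq2 counts of wild-type mouse embryonic fibroblasts were analysed. The deposited table holds raw counts per gene and well, whole numbers that the authors made with STAR on mm10, per the submitters' processing notes. Versions, the counting tool, strand use and any collapse of molecular identifiers were not given in the sources used here. Of 274 columns, 258 were given to a plate by name and 16 were not used. Another 4 columns were identical to one of the same name and were counted as 1 well, which left 254 wells. Of 20471 genes, 26 with names turned into dates were left out, and 20445 were used.

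Compound wells under 10% of their plate's median total were left out (4 of 222). Genes passed edgeR's filterByExpr with a minimum count of 10. The main test was edgeR's quasi-likelihood test (edgeR 4.0.16, R 4.3.3) with TMM scaling and Benjamini-Hochberg adjustment over all genes tested, called under 0.05. One fit held all 30 media wells. Each compound had 1 fit on its plate, against the other screening wells of that plate. Each class had 1 fit over the plates that held it, with plate in the model where there was more than 1. The SE is the log2 fold change divided by the square root of F. Levels per well are CPM on the well's total, with 1 added on the log2 scale for branch levels. Intervals (95%, exact) and bounds from 0 counts (3 counts) cover counting error only.

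All 30 genes are given by value or count, called ones in order of size. Compounds named are those with the most genes called and the 5 highest and 5 lowest in each branch level of a plate, and classes named are those with a gene called; the PI3K, AKT, PLK4 and CDK8/19 classes and the other pathway genes given as examples were chosen after their values were seen. Members and lists were chosen with earlier results of these data known, compound classes came from general knowledge, and the mTOR against PI3K comparison was added after the class results were seen. Some genes of the other pathway list are counted but not reported here by name. Of the 30 symbols, 29 matched directly and Msmo1 through an older symbol. Alternatives were DESeq2 1.42.0, library totals without TMM, no filter on low counts, a yield of at least 25%, bC8FAE wells as the reference, fits of only the media compared, and leaving out each well or compound. The test was also tried on simulated data. Python 3.11.15, pandas 2.3.3, numpy 2.4.6 and matplotlib 3.10.9 were used for tables and figures.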

Additional observations from a re-analysis of the deposited data

Results flagged for a closer look

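Of 130 groups of 4 or 5 wells (a gene in a medium), 10 had a well far from the others by Dixon's criterion, where chance alone gives about 1 in 20 groups. In the low-total well MEF 3, Acat2 stood at 259.8 CPM against 129.9 to 142.3 in the other MEF wells, and Nsdhl at 108.2 against 50.26 to 56.91. In the low-total well bC8FAE 4, Acat2 stood at 209.8 CPM against 81.12 to 115.2, and Fdft1 at 83.92 against 32.92 to 43.53. Sc5d was high in MEF 4 (35.9 CPM against 13.43 to 17.07) and in bC8FAE 5 (28.17 against 3.957 to 8.695), and Acaca in bC6FAE[10] 2 (44.2 against 18.58 to 20.92). Low values were those of Acat2 in bCLFAE 3 (72.25 CPM against 88.35 to 91.16), Scd1 in bCLFAE 2 (31.69 against 40.49 to 40.73) and Nsdhl in bCSFAE 2 (14.24 against 19.63 to 19.79).

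Wells named as holding no cells, which enter no comparison, also held counts of these genes. The well nocell 2 had 14 such counts in a total of 4273, which is 1.0% of the plate's median total, and nocell 3 had 67 in a total of 25279, or 5.91%. Relative to their own totals this was 3276 and 2650 CPM, where the median of the screening wells was 2632. The part of such counts in low-total wells that were kept was not tested.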

How the results depend on the processing

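No called gene changed direction under any alternative run. Leaving out 1 well kept 277 and lost 56 of 333 calls in the media and, for 1 compound, kept 63 and lost 32 of 95 in the classes. The other alternatives kept 202 of 222 calls in the media, 58 of 76 in the classes, and lost 28 of 143 for single compounds. Where a count of called genes moved by more than 1.5 times, the cause was not tested. DESeq2 called 0 sterol and 1 fatty acid gene in bC8FAE against bCFAE, 0 fatty acid genes in bC6FAE[2], 1 sterol gene in bC6FAE[10], 5 sterol genes with MEK inhibitors and 2 genes with VEGFR, PDGFR or KIT inhibitors. Without TMM the counts were 0 fatty acid genes in bC6FAE[2], 1 in bC6FAE[10], 5 sterol genes with MEK, 2 genes with FGFR and 0 with VEGFR, PDGFR or KIT inhibitors, and over all compounds 6 higher sterol calls and 2 higher fatty acid calls. Without the filter they were 0 fatty acid genes in bC6FAE[2], 1 sterol and 1 fatty acid gene in bC6FAE[10], 1 sterol gene with MEK, 0 with RAF, FGFR and VEGFR, PDGFR or KIT inhibitors, and 10 lower fatty acid calls over all compounds. With only the media compared, 1 fatty acid gene was called in basal against MEF and 0 sterol genes in bC8FAE against bCFAE. Without the 2 low-total wells, 2 fatty acid genes were called in bC8FAE against bCFAE.

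Leaving out each well in turn gave 1 to 2 fatty acid genes in basal against MEF, 7 to 9 sterol and 3 to 4 fatty acid genes in bCFAE against basal, and 11 to 14 sterol and 3 to 4 fatty acid genes in bC8FAE against MEF. Against bCFAE it gave 0 to 1 sterol and 0 to 2 fatty acid genes in bC8FAE, 0 to 1 and 0 to 1 in bC6FAE[2], 1 to 3 and 1 to 2 in bC6FAE[10], and 0 to 1 sterol genes in bCSFAE. Leaving out each compound gave 3 to 7 sterol and 3 to 4 fatty acid genes with mTOR inhibitors, 0 to 3 and 1 to 2 with MEK, 0 to 1 with RAF, 0 to 5 with FGFR, 0 to 2 with VEGFR, PDGFR or KIT inhibitors, and 3 to 8 in mTOR against PI3K. No paired analysis was possible because nothing says that well numbers pair wells across media and nearly all compounds had 1 well. Depth limits the low genes: Idi1, Fads2, Srebf1 and Insig1 did not pass the filter in the media.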
